A study of Mus musculus with 12 samples.

Results

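The chemokines and cytokines described here are 51 of the 48709 genes in the deposited count tables. Members are all genes whose mouse symbol is Ccl or Cxcl followed by a number, together with Cx3cl1, Il1a, Il1b, Il1rn, Il6, Il11, Il15, Il18, Il33, Il34, Lif, Csf1, Csf2, Csf3, Tnf, Tnfsf11, Tslp, Mif and Ptgs2. They comprise 33 chemokines and 18 cytokines or related genes, and the rule itself uses gene names alone. RNA sequencing covered 12 samples of cultured embryonic fibroblasts from C57BL/6 mice, with 3 samples in each of 4 groups. The groups were wild-type (WT) cells and TAZKo cells in normoxia, and the same cells after 24 hours of hypoxia. TAZKo denotes a lack of tafazzin, which remodels cardiolipin, a lipid of mitochondria, and the WT cells are described as isogenic. The labels do not give the oxygen level, the way tafazzin was lost, or whether either line is 1 clone. They also do not say whether replicates were separate cultures, so p-values measure only the spread between these samples, which may be technical.

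Chemokines are small secreted proteins that direct cell migration through G protein-coupled receptors, and their names follow the spacing of conserved cysteines (CC, CXC, CX3C). Fibroblasts are a well known source of them: Cxcl12 retains and guides cells that carry Cxcr4, Ccl2 and Ccl7 recruit monocytes, and Cxcl1 and Cxcl5 recruit neutrophils through Cxcr2. Csf1 and Il34 both signal through Csf1r to macrophages, Il33 and Il18 belong to the IL-1 family that Il1rn partly opposes, and Ptgs2 (COX-2) makes the precursor of inflammatory prostaglandins.

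Library totals ranged from 21039451 to 31204510 counts. Transcript of Taz, the gene of tafazzin, was not reduced under the TAZKo label: it stood at 39.8 to 45.8 CPM (counts scaled to a common library size) in TAZKo normoxia against 32.7 to 38.0 in WT normoxia, and at 32.8 to 35.1 in TAZKo hypoxia against 23.5 to 26.4 in WT hypoxia. Each genotype direction below therefore rests on the labels, and libraries are named by their labels. Of 10 fibroblast markers 8 passed the filter on low counts, with Fn1 and Vim among the highest, while Lum and Thy1 were near 0 (4 and 54 counts in all) and Col1a2 stood at 2.12 to 5.33 CPM. Among 9 leukocyte markers Adgre1 and Tyrobp were at 0 and Ptprc had 1 count in all. The list summed to 11.01 to 12.7 CPM in normoxia and 16.8 to 24.6 in hypoxia, and of its 4 tested genes Cd68, Cd14 and Csf1r rose with hypoxia under both labels while Lyz2 fell. Lymphocyte markers summed to at most 0.175 CPM, with Ms4a1 at 0. Of 3 mast cell markers Cpa3 was at 0, Mcpt4 had 2 counts in all, and Kit averaged 4.86 and 4.88 CPM in WT and TAZKo normoxia and 9.41 and 3.36 CPM in WT and TAZKo hypoxia. Of 5 endothelial markers, summed levels were 14.5 to 21.01 CPM under the WT label and 3.84 to 7.48 under the TAZKo label, almost all of it Tek and Kdr, with 4 counts of Cdh5 and 1 of Emcn. Of 6 epithelial markers, summed levels, mainly Krt18 and Krt14, were 315 to 431 and 196 to 258 CPM under the same labels, with Epcam at most 0.440 CPM in a group. The endothelial and epithelial sums moved with the genotype label, but not every single marker did. Pecam1, at 0.227 CPM in WT and 0.577 in TAZKo normoxia, was higher under the TAZKo label there (log2 1.38, edgeR adjusted p = 0.0389). In hypoxia the genotype differences of Pecam1, Krt8 and Krt18 did not pass (edgeR adjusted p = 0.855, 0.491 and 0.843). Of 8 tested fibroblast markers 7 differed by label in normoxia and 6 in hypoxia (87.5% and 75%, with 30.4% and 32.8% of all genes). Under the TAZKo label 5 and 4 were higher, such as Pdgfrb (log2 1.07 and 0.93), and 2 were lower in each, such as Col1a1 (-1.30 and -1.39). Of 4 tested leukocyte markers, Lyz2 was higher (2.45 and 2.95) and Csf1r lower (-0.88 and -1.21). The part of these lists in the genotype differences below was not tested. In a principal component analysis the third component (6.15% of the variance) set WT normoxia sample 1 apart from the rest.

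Of the 51 members, 26 passed the filter on low counts and are called detected, 15 chemokines and 11 others. The 25 undetected members never exceeded 11 counts in a library. They include the classical macrophage products Tnf (at most 2 counts), Il1b (1), Ccl3 (1) and Ccl4 (2), the neutrophil attractants Cxcl2 (2) and Cxcl3 (3), the interferon-induced Cxcl9 (4) and Cxcl11 (5), and the growth factors Csf2 (3) and Csf3 (8). Ccl19, Ccl26, Cxcl13 and Tnfsf11 had no read in any library. A count of 0 allows up to 3 counts, which corresponds to 0.0927 to 0.150 CPM depending on the library, and such limits cover counting error only. The detected members Ccl6, Ccl8 and Ccl9 met the limit of the filter (0.436 CPM) in no normoxia library, so they entered through the hypoxia samples alone.

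Per kilobase of exon (RPKM, CPM divided by the joint length of all annotated exons), the order of the highest members depended on the condition. In normoxia Cxcl12 led at a mean of 116 RPKM under the WT label and 194 under the TAZKo label, and Mif (57.2 and 56.7) lay below Csf1 (73.7 and 101). In hypoxia Mif led at 141 and 186 RPKM, above Cxcl12 at 127 and 166. This order depends on the lengths used, 745 bases for Mif and 8176 for Cxcl12. In CPM, Cxcl12 averaged 1035.5 and 1355.7 in hypoxia under the WT and TAZKo labels, and Mif 104.7 and 138.4. Of the 50-base words of Mif 37.6% also occur in other genes, so its counts are uncertain. Averaged over all libraries, Cxcl12 stood at 151 RPKM, Mif at 110, Csf1 at 84.2, Cxcl5 at 60.8, Ccl2 at 54.2, Cxcl14 at 37.5, Cxcl1 at 29.8 and Ccl7 at 21.4 RPKM. The remaining 18 detected members lay under 10 RPKM. Il6, often used as a marker of activated fibroblasts, averaged 0.456 RPKM and 0.607 to 2.15 CPM by library. Summed over all members, libraries held 1816 to 1904 CPM in WT normoxia, 2643 to 2722 in TAZKo normoxia, 1819 to 2034 in WT hypoxia and 2319 to 2395 in TAZKo hypoxia. The groups with different genotype labels did not overlap in this sum within a condition. Cxcl12 accounts for more of this CPM sum than any other member. In bulk samples, fewer cells of a type and less RNA per cell cannot be told apart.

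**Figure D1:**
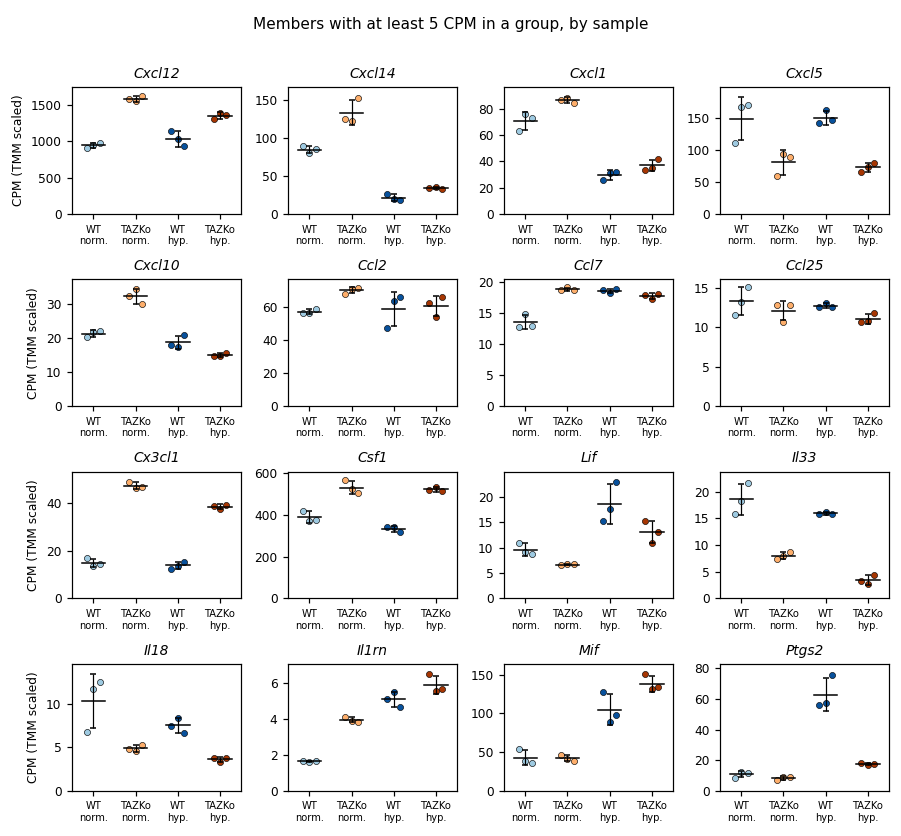
Level of the 16 members with at least 5 CPM in a group, in CPM (vertical axis, linear from 0), for the 3 samples of each of 4 groups; points are samples, lines and bars are mean and SD. Cx3cl1 separates the genotype labels in both conditions, and Ptgs2 is high in WT hypoxia only (56.0 to 75.5 CPM).

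Promoter sequences were read for the detected members to describe the sequence before the start of these genes. Promoters from RefSeq (GRCm38.p6) were used for 20 of the 26 detected members, 25 in all. The 250 bases before each start were searched on both strands. Ccl2, Ccl5, Ccl7, Cxcl5, Il34 and Tslp were not searched, and whether RefSeq holds promoters for them is not given here. The HIF core ACGTG occurred in 1 of these 25 promoters against 16.6% of all 32851 promoters. The AP-1 motif TGANTCA occurred in 6 (6.7% of all promoters), the NF-kB consensus in 7 (7.3%), the cAMP response element TGACGTCA in 1 (1.5%), the interferon-stimulated response element in 2 (3.0%) and the TATA box TATAAA in 7 (12.4%). The HIF core and the cAMP response element overlap in 4 bases, ACGT. A match is a description of letters in this window and not a bound site.

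The 4 promoters below belong to Cxcl1, the member with the HIF core, to Cxcl10, with 3 NF-kB matches and the interferon-stimulated response element, to Mif, with the cAMP response element, and to Ptgs2, whose response to hypoxia differed most between the genotype labels. They are given 5′ to 3′ on the strand of the gene, with matches in capitals. In Cxcl1 (chr5:90890995-90891244, plus strand) the capitals mark the HIF core on the opposite strand, 196 bases before the start, and the overlapping NF-kB matches 71 and 70 bases before it. In Cxcl10 (chr5:92348890-92349139, minus strand) they mark the interferon-stimulated response element at 213, NF-kB matches at 159, 104 and 103, and AP-1 at 74 bases before the start. In Mif (chr10:75860278-75860527, minus strand) they mark the cAMP response element 24 bases before the start, and the Ptgs2 window (chr1:150099781-150100030, plus strand) holds none of the 6 motifs.
Cxcl1: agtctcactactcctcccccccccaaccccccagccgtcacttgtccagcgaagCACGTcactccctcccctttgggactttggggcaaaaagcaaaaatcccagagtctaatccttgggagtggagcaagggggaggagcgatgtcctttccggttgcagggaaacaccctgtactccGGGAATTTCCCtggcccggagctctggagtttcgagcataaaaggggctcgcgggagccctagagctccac
Cxcl10: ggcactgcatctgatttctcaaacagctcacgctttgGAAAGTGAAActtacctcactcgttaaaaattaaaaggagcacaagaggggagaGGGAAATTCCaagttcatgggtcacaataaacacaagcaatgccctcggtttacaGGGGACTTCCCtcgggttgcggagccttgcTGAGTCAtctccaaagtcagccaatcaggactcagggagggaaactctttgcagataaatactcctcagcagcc
Mif: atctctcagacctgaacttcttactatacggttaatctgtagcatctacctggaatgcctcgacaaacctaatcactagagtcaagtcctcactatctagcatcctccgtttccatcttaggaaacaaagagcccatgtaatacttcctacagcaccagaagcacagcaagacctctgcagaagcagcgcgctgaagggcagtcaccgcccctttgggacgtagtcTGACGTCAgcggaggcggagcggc
Ptgs2: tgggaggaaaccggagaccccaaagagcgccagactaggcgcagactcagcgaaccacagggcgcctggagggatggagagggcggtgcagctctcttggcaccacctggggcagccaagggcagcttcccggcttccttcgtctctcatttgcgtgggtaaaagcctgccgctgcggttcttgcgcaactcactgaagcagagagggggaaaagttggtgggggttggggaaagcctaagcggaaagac

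The first comparison asked how the fibroblasts labelled TAZKo differ from those labelled WT in normoxia. Of the 26 detected members, 14 differed at an adjusted p under 0.05 (edgeR quasi-likelihood test over 14408 genes, Benjamini-Hochberg), 10 higher and 4 lower under the TAZKo label. Across all genes tested, 30.4% differed in this comparison (15.6% higher and 14.9% lower), and 53.8% of the detected members. The median log2 difference was 0.29 over the detected members and 0.0099 over all genes, and the median size without sign was 0.65 and 0.20. At a difference of at least 2-fold, 6 members passed, with a background of 5.96%. Same-numbered libraries of these 2 groups deviated together, though samples 2 and 3 also did so across numbers. With the replicate number as a block Ccl2 and Ptgs2 passed as well, which gave 16 members.

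After 24 hours of hypoxia the same comparison gave 15 members, 7 higher and 8 lower under the TAZKo label (57.7% of members, with 32.8% of all genes, 15.8% higher and 16.9% lower). Their median log2 difference was -0.014 against -0.0078 over all genes, with median sizes of 0.63 and 0.21. A 2-fold difference was passed by 8 members, with 5.82% of all genes. Higher under the TAZKo label in both conditions were Ccl17, Csf1, Cx3cl1, Cxcl1, Cxcl12, Cxcl14 and Il34, and lower in both were Cxcl5, Il18, Il33 and Lif. Cxcl10 was higher in normoxia and lower in hypoxia. Ccl7 and Il1rn passed in normoxia alone, and Il6, Ptgs2 and Tslp in hypoxia alone, all 3 of these lower. The hypoxia comparison used other libraries than the normoxia comparison.

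**Figure D2:**
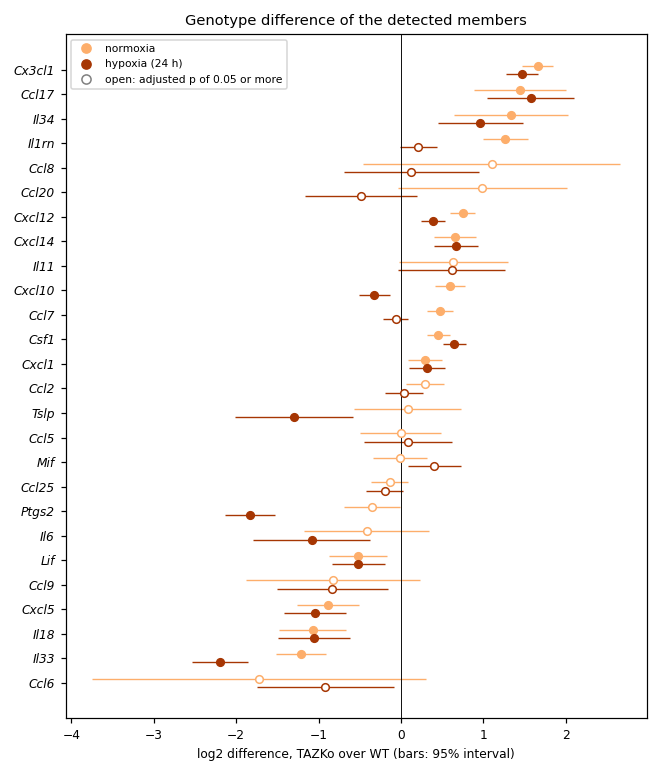
Log2 difference between TAZKo-labelled and WT-labelled libraries (horizontal axis) for the 26 detected members, in normoxia and after 24 hours of hypoxia; bars are 95% intervals and open points have an adjusted p of 0.05 or more. Cx3cl1 is highest in normoxia at 1.66, and Il33 is lowest in hypoxia at -2.19.

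Hypoxia itself was compared with normoxia within each genotype label. Under the WT label 14 of 26 detected members changed (53.8%), 10 rising and 4 falling, where 51.0% of all genes changed, 26.0% rising and 25.0% falling, and the median log2 change was 0.17 against 0.0089 over all genes. Under the TAZKo label 16 changed (61.5%), 9 rising and 7 falling, where 43.8% of all genes changed, 22.2% rising and 21.6% falling, with a median of -0.054 against -0.0088. The share under the WT label is near its background. At least 2-fold changes were called for 10 and 12 members, with 11.2% and 8.44% of all genes. Ccl20, Ccl6, Ccl8, Ccl9, Il1rn, Il34, Lif, Mif and Ptgs2 rose under both labels, and Cxcl1 and Cxcl14 fell under both. Of these, Ccl6, Ccl8 and Ccl9 had entered the test through hypoxia libraries alone, so that their rise is in part fixed by the filter. Among the other 23 members 11 changed under the WT label (47.8%, 7 rising and 4 falling) and 13 under the TAZKo label (56.5%, 6 rising and 7 falling), 7 and 9 of them by at least 2-fold. The median log2 change of these 23 was 0.097 and -0.13.

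The difference between the hypoxia responses, TAZKo minus WT, passed for 5 members (19.2%, with 2.43% of all genes): Ptgs2, Il1rn, Il33, Cxcl10 and Ccl7. All 5 differences were negative, a direction found for 1.71% of all genes, and no member had a positive difference past the threshold (0.722% of all genes). The median difference was -0.17 over the detected members and -0.016 over all genes. At an unadjusted p under 0.05 the count was 8, and DESeq2 gave 6 at its adjusted threshold. The shares of all genes by these criteria are not given here, so these counts cannot be set against a background. Differences of at least 2-fold were called for 2 members, with 0.569% of all genes. Without TAZKo normoxia sample 2, TAZKo hypoxia sample 1 or TAZKo hypoxia sample 2 the count was 3.

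**Figure D3:**
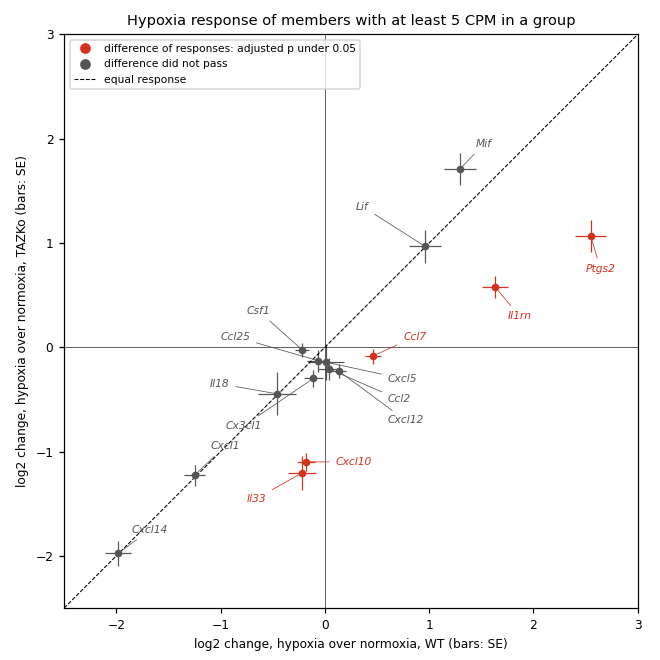
Log2 change from normoxia to 24 hours of hypoxia under the WT label (horizontal axis) and the TAZKo label (vertical axis) for the 16 members with at least 5 CPM in a group; bars are standard errors and the dashed line marks equal changes. Cxcl14 and Cxcl1 lie on the line among the falling genes, and the 5 red members lie below it.

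Among CXC chemokines, Cxcl12 (ENSMUSG00000061353, chromosome 6 from 117168535 to 117181367 in GRCm38) had the highest level per kilobase in each group. Its levels were 909, 948 and 978 CPM in the 3 WT normoxia libraries and 1580.3, 1550.3 and 1629 CPM in TAZKo normoxia. In hypoxia they were 1149, 1026 and 932 CPM under the WT label and 1311, 1398 and 1358 CPM under the TAZKo label. The labels did not overlap in either condition. The log2 difference was 0.75 (SE 0.0695, edgeR adjusted p = 2.87e-06) in normoxia and 0.39 (SE 0.0692, edgeR adjusted p = 0.000758) in hypoxia. Hypoxia lowered Cxcl12 by a log2 change of -0.23 under the TAZKo label (edgeR adjusted p = 0.0166). Under the WT label the change was 0.13 (edgeR adjusted p = 0.128) and came to -0.00094 without WT hypoxia sample 1. These responses differed by -0.36 (SE 0.0978), which did not pass (edgeR adjusted p = 0.0795). Its scavenger receptor Ackr3 was also higher under the TAZKo label, at 52.0 ± 5.67 against 28.5 ± 1.44 CPM in normoxia (SD, n = 3; log2 difference 0.87, edgeR adjusted p = 2.83e-06).

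Cxcl14, a chemokine produced by epithelia and stroma, showed the largest fall in hypoxia among members. WT normoxia libraries held 89.4, 79.9 and 85.3 CPM and WT hypoxia libraries 26.7, 19.97 and 18.0 CPM. Libraries labelled TAZKo held 125.6, 123 and 152.5 CPM in normoxia and 34.8, 34.9 and 32.4 CPM in hypoxia. Every hypoxia library lay below every normoxia library, and the TAZKo libraries lay above the WT libraries of the same condition. The log2 change with hypoxia was -1.98 under both labels (SE 0.125 and 0.122, edgeR adjusted p = 2.65e-08 and 3.42e-08). The difference of the 2 responses was 0.0079, with a 95% interval from -0.36 to 0.37. Cxcl14 was higher under the TAZKo label by 0.66 in normoxia (SE 0.116) and 0.66 in hypoxia (SE 0.125), with edgeR adjusted p of 0.000765 and 0.00116.

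The neutrophil attractants Cxcl1 and Cxcl5, both on chromosome 5, moved in opposite directions with the genotype label. Cxcl1 stood at 63.1, 75.7 and 72.9 CPM in WT normoxia, 86.9, 88.5 and 84.2 in TAZKo normoxia, 25.6, 31.5 and 31.9 in hypoxic WT and 33.7, 35.2 and 41.7 in hypoxic TAZKo libraries. It fell in hypoxia by a log2 change of -1.25 under the WT label (SE 0.102, edgeR adjusted p = 3.11e-07) and -1.23 under the TAZKo label (SE 0.0999, edgeR adjusted p = 5.03e-07). Its promoter is the one printed above with the HIF core. The genotype difference of Cxcl1 was small, 0.29 in normoxia and 0.32 in hypoxia (edgeR adjusted p = 0.0357 and 0.0298). The normoxia call was lost in 10 of 12 fits with 1 library left out (all but those without WT hypoxia sample 1 or TAZKo hypoxia sample 3), at adjusted p up to 0.159, and with a filter at a mean of 1 CPM. The hypoxia call was lost without WT hypoxia sample 1, TAZKo hypoxia sample 2 or TAZKo hypoxia sample 3, at adjusted p up to 0.178.

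Cxcl5 was measured at 110.2, 167 and 169.8 CPM in WT normoxia and 58.5, 93.7 and 89.4 CPM in TAZKo normoxia. In hypoxia its levels were 142, 163 and 146 CPM under the WT label and 65.8, 72.7 and 80.2 CPM under the TAZKo label. The labels did not overlap within a condition, although WT normoxia sample 1 was the lowest of its group. Cxcl5 was lower under the TAZKo label by a log2 difference of -0.89 in normoxia and -1.05 in hypoxia (SE 0.175 and 0.175, edgeR adjusted p = 0.00163 and 0.00048). No change with hypoxia passed the test (edgeR adjusted p = 0.955 and 0.546 under the WT and TAZKo labels).

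Cxcl10 (ENSMUSG00000034855, chromosome 5 from 92346638 to 92348889), an interferon-inducible attractant of T cells, changed its order between conditions. In normoxia the libraries labelled WT held 20.2, 21.7 and 22.0 CPM and those labelled TAZKo 32.4, 34.4 and 29.98 CPM. In hypoxia they held 18.1, 17.3 and 20.997 CPM and 14.7, 14.7 and 15.6 CPM. The labels did not overlap in either condition, with TAZKo above WT in normoxia and below it in hypoxia. The log2 differences were 0.60 (SE 0.0832, edgeR adjusted p = 0.000112) and -0.32 (SE 0.087, edgeR adjusted p = 0.0115), the latter lost without WT hypoxia sample 3 (-0.24, adjusted p = 0.0598). Under the TAZKo label hypoxia lowered Cxcl10 by -1.098 (SE 0.0849, edgeR adjusted p = 3.2e-07). Under the WT label the change was -0.18 (edgeR adjusted p = 0.0978) and passed the threshold in 11 of 21 alternative fits. The 2 changes differed by -0.92 (SE 0.12, edgeR adjusted p = 0.00177). Of its exon bases 5.9% overlap Art3 on the other strand, and the strand setting of the counting is not given in the sources used here.

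Cx3cl1 (ENSMUSG00000031778, chromosome 8 from 94772009 to 94782427), the membrane-tethered chemokine also called fractalkine, had the largest rise with the TAZKo label in normoxia among the members. Libraries labelled WT held 16.8, 13.6 and 14.6 CPM in normoxia and 12.4, 13.6 and 15.4 CPM in hypoxia. Those labelled TAZKo held 48.7, 46.2 and 46.8 CPM in normoxia and 38.7, 37.3 and 39.2 CPM in hypoxia. All 6 TAZKo libraries lay above all 6 WT libraries, 3.15-fold in normoxia (log2 1.66, SE 0.0884, edgeR adjusted p = 1.49e-08) and 2.77-fold in hypoxia (log2 1.47, SE 0.0894, edgeR adjusted p = 6.03e-08). Hypoxia lowered it by -0.30 under the TAZKo label (SE 0.0832, edgeR adjusted p = 0.0102) and the change was -0.11 under the WT label (edgeR adjusted p = 0.344). The difference of these changes was not past the threshold (edgeR adjusted p = 0.509). Across the 796 tested genes of chromosome 8 the median genotype difference was -0.16 in normoxia and -0.15 in hypoxia. Ccl17 (94810453 to 94812036) lies close to Cx3cl1 and was also higher under the TAZKo label, by 1.44 and 1.57. Il34, on the same chromosome, was higher by 1.33 and 0.96, while Ccl25, also there, passed in no comparison. The part of position in these differences was not tested.

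Of 9 detected CC chemokines, 2 were higher under the TAZKo label in normoxia (22.2%) and none was lower, where 15.6% of all genes were higher and 14.9% lower. With so few genes these shares are near the background. Ccl2, the main monocyte attractant, stood at 56.5, 56.5 and 58.7 CPM in WT normoxia and 67.9, 70.6 and 71.4 in TAZKo normoxia. In hypoxia its libraries overlapped, at 47.0, 63.3 and 66.2 CPM under the WT label and 62.1, 53.9 and 65.8 under the TAZKo label. The normoxia groups did not overlap, but the log2 difference of 0.29 (SE 0.107) missed the threshold (edgeR adjusted p = 0.0559). It passed in 5 of 21 alternative fits, among them the replicate block (edgeR adjusted p = 0.027). Without the block Ccl2 passed in none of the 5 comparisons.

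Another gene of this family, Ccl7 (ENSMUSG00000035373, chromosome 11 from 82045712 to 82047525), also a monocyte attractant, was lowest in WT normoxia, at 12.7, 14.8 and 12.9 CPM. The other groups lay close together, at 18.7, 19.1 and 18.6 CPM in TAZKo normoxia, 18.6, 18.2 and 18.8 in hypoxic WT and 17.9, 17.2 and 18.1 in hypoxic TAZKo libraries. The rise with the TAZKo label in normoxia was 0.48 (SE 0.073, edgeR adjusted p = 0.000247) and the rise with hypoxia under the WT label 0.46 (SE 0.0736, edgeR adjusted p = 0.000151). These 2 values share the WT normoxia libraries. Under the TAZKo label the change with hypoxia was -0.084 (edgeR adjusted p = 0.371), and the genotype difference in hypoxia was -0.067 (edgeR adjusted p = 0.52). The difference of responses, -0.54 (SE 0.103, edgeR adjusted p = 0.0135), was lost without TAZKo normoxia sample 2, WT hypoxia sample 3, TAZKo hypoxia sample 1 or TAZKo hypoxia sample 2, at adjusted p up to 0.0625.

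Ccl17, a ligand of Ccr4 on T cells, was low but higher under the TAZKo label. Its levels were 0.663, 0.526 and 0.435 CPM in WT normoxia, 1.85, 1.30 and 1.27 in TAZKo normoxia, 0.450, 0.808 and 0.582 in hypoxic WT and 1.80, 2.08 and 1.64 in hypoxic TAZKo libraries. All TAZKo libraries lay above all WT libraries. The log2 difference was 1.44 in normoxia and 1.57 in hypoxia (SE 0.259 and 0.246, edgeR adjusted p = 0.000847 and 0.000278). Ccl5 (1.17 to 2.96 CPM), an attractant of T cells, and Ccl25 (10.6 to 15.1 CPM), a thymic and gut chemokine, passed in none of the 5 comparisons, with lowest edgeR adjusted p of 0.165 and 0.174. Of the exon bases of Ccl25, 2.7% overlap Elavl1.

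Ccl20, the ligand of Ccr6, rose with hypoxia from 0.663, 0.483 and 0.507 CPM to 1.60, 4.31 and 4.26 CPM under the WT label. Under the TAZKo label it went from 1.18, 1.60 and 0.618 CPM to 2.92, 2.14 and 2.40 CPM. Normoxia and hypoxia did not overlap under either label. The log2 changes were 2.64 (SE 0.406, edgeR adjusted p = 0.000111) and 1.17 (SE 0.367, edgeR adjusted p = 0.0193). The second call was lost without TAZKo normoxia sample 3 (0.79, adjusted p = 0.116) or TAZKo hypoxia sample 1 (1.02, adjusted p = 0.071). Between the labels these rises differed by -1.47 (SE 0.573), which did not pass (edgeR adjusted p = 0.221).

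Ccl6, Ccl8 and Ccl9, which act mainly on monocytes and other myeloid cells, were near the detection floor in normoxia. Over the 3 libraries of a group, Ccl6 had 10 counts in WT normoxia and 61 in WT hypoxia, a ratio of 6.38 per scaled library with an exact 95% counting interval from 3.25 to 14.0. It had 3 and 36 counts under the TAZKo label, a ratio of 12.2 with an interval from 3.84 to 61.7. Ccl8 went from 5 to 32 counts and from 12 to 39, and Ccl9 from 15 to 43 and from 9 to 27, under the WT and TAZKo labels. All 6 changes passed the edgeR test (adjusted p from 0.000629 to 0.0098), but these genes were tested only because of their hypoxia levels, so the calls are a description and no support for a rise. Without TAZKo normoxia sample 3 the TAZKo calls of Ccl8 and Ccl9 were lost (adjusted p = 0.0634 and 0.0529), and that of Ccl9 also without TAZKo hypoxia sample 2 (0.0791). Of the leukocyte markers, Cd68 averaged 3.06 and 7.38 CPM, Csf1r 1.87 and 5.13 and Cd14 5.93 and 9.46 in WT normoxia and hypoxia. In TAZKo normoxia and hypoxia they averaged 3.81 and 6.53, 1.02 and 2.24, and 5.36 and 8.13 CPM. Lyz2 fell under both labels (log2 -2.23 and -1.74), and Adgre1 and Tyrobp were at 0 in all libraries. The part of such cells in these rises was not tested.

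**Figure D4:**
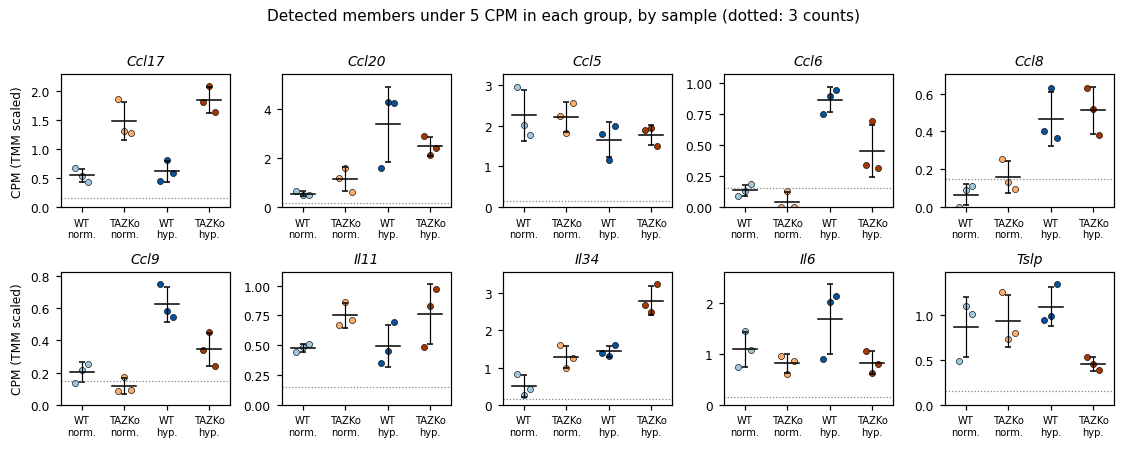
Level of the 10 detected members under 5 CPM in each group, in CPM (vertical axis, linear from 0), for the 3 samples of each of 4 groups; points are samples, lines and bars are mean and SD, and the dotted line is the highest value of 3 counts, 0.150 CPM. Ccl6, Ccl8 and Ccl9 lie near that line in normoxia and above it in hypoxia.

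The macrophage growth factor Csf1 (ENSMUSG00000014599, chromosome 3 from 107741048 to 107760469) was abundant in all libraries. It stood at 422, 369.97 and 375 CPM in WT normoxia and 567, 524 and 505 CPM in TAZKo normoxia. In hypoxia the values were 344, 341 and 318 CPM under the WT label and 519, 536 and 516 CPM under the TAZKo label. Every TAZKo library lay above every WT library. The log2 difference was 0.45 in normoxia and 0.65 in hypoxia (SE 0.065 and 0.0652, edgeR adjusted p = 0.000147 and 6.56e-06). Hypoxia lowered Csf1 under the WT label by -0.22 (SE 0.065, edgeR adjusted p = 0.0121), and the change was -0.024 under the TAZKo label (edgeR adjusted p = 0.798). The difference of responses, 0.20 (95% interval from -0.0024 to 0.39), missed the threshold (edgeR adjusted p = 0.324).

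Il34, the second ligand of Csf1r, was far lower, at 0.84, 0.263 and 0.435 CPM in WT normoxia and 1.60, 0.997 and 1.27 in TAZKo normoxia. It reached 1.40, 1.30 and 1.60 CPM in hypoxic WT and 2.67, 2.49 and 3.24 in hypoxic TAZKo libraries. The labels did not overlap within a condition. Il34 was higher under the TAZKo label by 1.33 in normoxia and 0.96 in hypoxia (SE 0.319 and 0.239, edgeR adjusted p = 0.00607 and 0.00736). It rose with hypoxia by 1.497 (SE 0.319) and 1.12 (SE 0.239) under the WT and TAZKo labels, at edgeR adjusted p of 0.00142 and 0.00181. Thus both ligands were higher under the TAZKo label in each condition. Their receptor transcript Csf1r stood at 1.02 to 5.13 CPM by group and was lower under the TAZKo label in both conditions. Its log2 differences were -0.88 in normoxia and -1.21 in hypoxia (SE 0.22 and 0.172, edgeR adjusted p = 0.00779 and 0.000126). Of Csf1r exon bases 15.1% overlap Hmgxb3.

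In the IL-1 family, Il33 (ENSMUSG00000024810, chromosome 19 from 29925114 to 29960718), a nuclear alarmin, was lower under the TAZKo label in both conditions. WT libraries held 15.8, 18.2 and 21.7 CPM in normoxia and 15.9, 16.2 and 15.8 CPM in hypoxia. TAZKo libraries held 7.45, 7.97 and 8.65 CPM in normoxia and 3.26, 2.73 and 4.43 CPM in hypoxia. All TAZKo libraries lay below all WT libraries, and TAZKo hypoxia below TAZKo normoxia. The difference was 2.31-fold in normoxia (log2 -1.21, SE 0.14, edgeR adjusted p = 2.22e-05) and 4.58-fold in hypoxia (log2 -2.19, SE 0.156, edgeR adjusted p = 2.57e-07). Hypoxia lowered Il33 by -1.21 under the TAZKo label (SE 0.162, edgeR adjusted p = 4.94e-05), and the change was -0.22 under the WT label (edgeR adjusted p = 0.182). The difference of responses, -0.98 (SE 0.211, edgeR adjusted p = 0.0267), kept its sign in 12 fits with 1 library left out but missed the threshold in 7 of them (adjusted p up to 0.0959). These 7 left out WT normoxia sample 2, TAZKo normoxia sample 2 or 3, WT hypoxia sample 2 or 3, or TAZKo hypoxia sample 1 or 2. The 492 tested genes of chromosome 19 had a median genotype difference of -0.27 in normoxia and -0.28 in hypoxia.

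Il18, a cytokine that induces interferon-gamma in lymphocytes, was also lower under the TAZKo label. It stood at 6.72, 11.7 and 12.5 CPM in WT normoxia, 4.80, 4.55 and 5.32 in TAZKo normoxia, 7.50, 8.39 and 6.66 in hypoxic WT and 3.79, 3.32 and 3.73 in hypoxic TAZKo libraries. The labels did not overlap. The log2 difference was -1.07 in normoxia and -1.06 in hypoxia (SE 0.188 and 0.201, edgeR adjusted p = 0.000697 and 0.00123). The fall with hypoxia under the WT label, -0.46 (edgeR adjusted p = 0.0481), was lost without WT normoxia sample 2 or 3, or WT hypoxia sample 1 or 3 (adjusted p up to 0.142), and with only the 6 samples compared (0.0958). Its accessory receptor Il18rap was higher under the TAZKo label, at 5.97 ± 0.702 against 2.47 ± 0.347 CPM in normoxia (SD, n = 3; log2 difference 1.26, edgeR adjusted p = 1.77e-05).

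Il1rn (ENSMUSG00000026981, chromosome 2 from 24336853 to 24351494) encodes the antagonist of the IL-1 receptor. It held 1.64, 1.62 and 1.67 CPM in WT normoxia, 4.12, 3.90 and 3.86 in TAZKo normoxia, 5.15, 5.52 and 4.69 in hypoxic WT and 6.51, 5.60 and 5.68 in hypoxic TAZKo libraries. WT normoxia lay below all other libraries, and the genotype labels lay apart by less in hypoxia. The TAZKo label was higher by 1.27 in normoxia (SE 0.126, edgeR adjusted p = 5.74e-06), and the difference in hypoxia was 0.21 (SE 0.104, edgeR adjusted p = 0.147). Il1rn rose with hypoxia by 1.63 under the WT label (SE 0.124, edgeR adjusted p = 1.64e-07) and by 0.58 under the TAZKo label (SE 0.106, edgeR adjusted p = 0.000628). The difference of the responses was -1.06 (SE 0.165, edgeR adjusted p = 0.00465).

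Among IL-6 family cytokines, Lif, a factor that maintains stem cells and signals through gp130, rose with hypoxia under both labels. It stood at 10.97, 9.08 and 8.73 CPM in WT normoxia, 6.56, 6.67 and 6.71 in TAZKo normoxia, 15.2, 17.6 and 22.9 in hypoxic WT and 15.3, 10.9 and 13.0 in hypoxic TAZKo libraries. The log2 rise was 0.96 (SE 0.152, edgeR adjusted p = 0.000142) and 0.97 (SE 0.159, edgeR adjusted p = 0.000262), and their difference had a 95% interval from -0.46 to 0.47. Lif was lower under the TAZKo label by -0.53 in normoxia and -0.52 in hypoxia (edgeR adjusted p = 0.0259 and 0.0157). The normoxia call was lost without WT normoxia sample 1 or any 1 TAZKo normoxia sample, and the hypoxia call without WT hypoxia sample 3 or TAZKo hypoxia sample 2 (adjusted p up to 0.0769 and 0.0896). In hypoxia 1 TAZKo library (15.3 CPM) lay above the lowest WT library (15.2 CPM).

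Il6 was low, at 14 to 59 counts by library. Its levels were 0.752, 1.45 and 1.09 CPM in WT normoxia, 0.968, 0.607 and 0.865 in TAZKo normoxia, 0.90, 2.02 and 2.15 in hypoxic WT and 1.07, 0.623 and 0.802 in hypoxic TAZKo libraries. The genotype difference in hypoxia of -1.08 (SE 0.33, edgeR adjusted p = 0.022) rested on WT hypoxia samples 2 and 3, since sample 1 lay among the TAZKo libraries. It was lost without either of these, and without TAZKo hypoxia sample 2 or 3 (adjusted p up to 0.111). Il11, a relative of Il6 linked to fibrosis, held 0.350 to 0.976 CPM and passed in no comparison (lowest edgeR adjusted p = 0.136).

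Tslp, an epithelial and stromal cytokine of type 2 immunity, had 0.487, 1.10 and 1.01 CPM in WT normoxia and 1.26, 0.737 and 0.804 in TAZKo normoxia. In hypoxia it had 0.950, 0.987 and 1.35 CPM under the WT label and 0.535, 0.450 and 0.383 under the TAZKo label. The labels overlapped in normoxia and did not in hypoxia, where the log2 difference was -1.30 (SE 0.333, edgeR adjusted p = 0.00867). Under the TAZKo label it fell with hypoxia by -1.04 (SE 0.338, edgeR adjusted p = 0.0233), a call lost without TAZKo normoxia sample 1 or TAZKo hypoxia sample 2 or 3 (adjusted p up to 0.091). Between the labels these changes differed by -1.38 (SE 0.451), which did not pass (edgeR adjusted p = 0.145). The 360 tested genes of chromosome 18, where Tslp lies, had median genotype differences of -0.22 and -0.28.

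Mif (ENSMUSG00000033307, chromosome 10 from 75859353 to 75860240), a cytokine and tautomerase that is a known target of HIF-1, rose with hypoxia under both labels. It went from 53.7, 38.8 and 35.4 CPM to 127, 88.9 and 98.0 CPM under the WT label, and from 46.7, 41.2 and 38.8 CPM to 150.4, 131 and 134 CPM under the TAZKo label. Normoxia and hypoxia did not overlap under either label. The rise was 2.46-fold (log2 1.30, SE 0.153, edgeR adjusted p = 1.07e-05) and 3.28-fold (log2 1.71, SE 0.154, edgeR adjusted p = 1.28e-06). The genotype difference in hypoxia was 0.40 (SE 0.148, edgeR adjusted p = 0.0519) and passed the threshold in 10 of 21 alternative fits. The 676 tested genes of chromosome 10 had medians of 0.31 and 0.29 in the genotype comparisons. Of the 50-base words in the longest Mif transcript 37.6% also occur in 5 other annotated genes, among them Mif-ps3, so the counts of Mif are uncertain where reads were split among them.

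Ptgs2 (ENSMUSG00000032487, chromosome 1 from 150100031 to 150108227), the inducible cyclooxygenase, had the largest difference between hypoxia responses among members past the threshold. It stood at 8.36, 11.98 and 11.8 CPM in WT normoxia and 7.07, 9.01 and 9.15 CPM in TAZKo normoxia. These groups overlapped, although each TAZKo library lay below the WT library of the same number. In hypoxia it reached 56.0, 57.0 and 75.5 CPM under the WT label and 18.1, 17.1 and 17.7 CPM under the TAZKo label. These groups lay far apart. Ptgs2 rose 5.86-fold under the WT label (log2 2.55, SE 0.147, edgeR adjusted p = 1.09e-08) and 2.09-fold under the TAZKo label (log2 1.06, SE 0.153, edgeR adjusted p = 8.54e-05). The 2 rises differed by a log2 value of -1.49 (SE 0.211, edgeR adjusted p = 0.00247). In hypoxia the TAZKo libraries were lower by 3.57-fold (log2 -1.83, SE 0.141, edgeR adjusted p = 5.17e-07), while in normoxia the difference was -0.35 (SE 0.158, edgeR adjusted p = 0.116). The normoxia difference passed in 3 of 21 alternative fits: with the replicate block (-0.35, edgeR adjusted p = 0.0436), with no filter on low counts and without WT normoxia sample 1. Among markers of other cells, Kit, a mast cell marker, also rose with hypoxia under the WT label (log2 0.95) and had a difference of responses of -1.48 (edgeR adjusted p = 0.00185), with Cpa3 at 0 and Mcpt4 at 2 counts. The part of such cells was not tested. Ptges2, a prostaglandin E synthase downstream of Ptgs2, fell with hypoxia by -1.01 and -0.67 under the WT and TAZKo labels (edgeR adjusted p = 5.41e-06 and 0.000256).

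**Figure D5:**
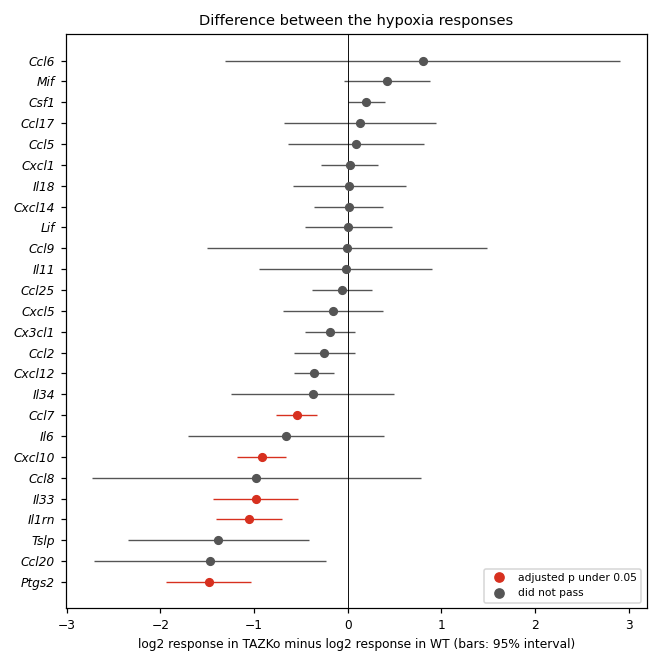
Difference between the log2 responses to hypoxia, TAZKo minus WT (horizontal axis), for the 26 detected members; bars are unadjusted 95% intervals and red points have an adjusted p under 0.05. The 5 red members run from Ccl7 at -0.54 to Ptgs2 at -1.49.

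Receptors and signalling partners of the members were taken as a list of 58 genes, of which 29 were tested and 25 never reached 10 counts in a library. In normoxia 9 were higher and 5 lower under the TAZKo label (48.3%, with 30.4% of all genes), with a median log2 difference of 0.19 against 0.0099 over all genes. In hypoxia 10 were higher and 5 lower (51.7%, with 32.8% of all genes), with medians of 0.21 and -0.0078. Cd74, the invariant chain that also serves as the Mif receptor, rose most, from 3.23 ± 0.606 to 9.92 ± 0.952 CPM in normoxia (SD, n = 3; log2 difference 1.61, edgeR adjusted p = 5.86e-07) and by 1.90 in hypoxia (edgeR adjusted p = 1.6e-07). Cd44, its signalling partner, rose by 1.19 in normoxia (edgeR adjusted p = 8.22e-06). With hypoxia 8 rose and 9 fell under the WT label (58.6%), and 7 and 7 under the TAZKo label (48.3%), shares near the 51.0% and 43.8% of all genes. Osmr, the oncostatin M receptor, rose from 78.8 ± 7.96 to 158 ± 6.64 CPM under the WT label and from 84.0 ± 2.91 to 133 ± 6.38 CPM under the TAZKo label (SD, n = 3; log2 0.999 and 0.66, edgeR adjusted p = 1.29e-07 and 9.04e-06). Il11ra1 fell by -1.33 and -1.01 under the WT and TAZKo labels (edgeR adjusted p = 1.36e-06 and 1.65e-05), with 60.0% of its 50-base words shared with other genes. In the difference of responses 1 receptor gene of 29 passed (3.45%, with 2.43% of all genes), Cd44 at -0.74 (edgeR adjusted p = 0.038), a call lost in 10 of 12 fits with 1 library left out (all but those without WT normoxia sample 1 or WT hypoxia sample 1, adjusted p up to 0.131).

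All 35 genes of a list of transcriptional and mRNA-stability regulators of cytokine genes were tested. Under the TAZKo label 14 were higher and 8 lower in normoxia (40.0% and 22.9%), where 15.6% and 14.9% of all genes were. In hypoxia 6 were higher and 11 lower (17.1% and 31.4%), with 15.8% and 16.9% of all genes. With hypoxia 18 rose and 8 fell under the WT label (51.4% and 22.9%, with 26.0% and 25.0% of all genes), and 12 rose and 6 fell under the TAZKo label (34.3% and 17.1%, with 22.2% and 21.6%). Atf3, a stress-induced repressor of inflammatory genes, rose from 7.61 ± 0.441 to 110.7 ± 16.5 CPM under the WT label and from 10.6 ± 0.638 to 45.1 ± 4.48 CPM under the TAZKo label (SD, n = 3; log2 3.87 and 2.09, edgeR adjusted p = 1.92e-11 and 7.13e-09). The AP-1 genes Fosl1, Fos and Jun rose under the WT label by 2.48, 2.39 and 1.95 (edgeR adjusted p = 1.98e-09, 4.08e-07 and 1.11e-09) and under the TAZKo label by 1.98, 0.61 and 1.12 (edgeR adjusted p = 2.85e-08, 0.0168 and 3.57e-07). The TAZKo call of Fos was lost without TAZKo normoxia sample 1 or 2 or TAZKo hypoxia sample 1 or 2 (adjusted p up to 0.0893). Between the labels Fos was higher under TAZKo in normoxia (log2 0.87 to 1.12 over 21 refits) and lower in hypoxia (-0.87 to -0.52). Tnfaip3 and Nfkbiz, feedback regulators of NF-kB signalling, rose by 1.89 and 1.496 under the WT label (edgeR adjusted p = 2.41e-10 and 3.17e-08) and by 1.23 and 1.14 under the TAZKo label (edgeR adjusted p = 1.54e-08 and 7.09e-07). The difference of responses passed for 7 of the 35, all negative, with 1.71% of all genes negative past the threshold, among them Atf3 at -1.78, Fos at -1.78, Zfp36, which destabilises cytokine mRNA, at -0.86, and Jun at -0.83 (edgeR adjusted p = 0.00016, 0.00447, 0.00401 and 0.00319). Of Fosl1 exon bases 57.2% overlap Ccdc85b on the other strand.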

How the data were processed

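RNA sequencing libraries (TruSeq RNA v2 kit, per the labels' protocols) were measured in 12 samples, 3 in each of 4 groups. The authors deposited 1 table of whole-number read counts per Ensembl gene for each sample. The build is mm10 per the submitters' processing notes. The aligner, counter, strand setting and annotation release are not given in the sources used here. Of 48709 IDs, 48349 were matched to symbols and GRCm38 positions (GENCODE M21) and 360 were not. The rule takes no letter after the number, and of 4 chemokine rows with one (Ccl21a, Ccl21b, Ccl27a, Ccl27b) only Ccl27a was tested, at 17 to 37 counts, and passed in no comparison (lowest edgeR adjusted p = 0.461).

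Counts were filtered with filterByExpr by group (14408 genes), scaled by TMM (trimmed mean of M values), and the model had a coefficient for each group over all 12 samples (edgeR 4.0.16, with R 4.3.3 and limma 3.58.1). Contrasts were tested by quasi-likelihood and adjusted by Benjamini-Hochberg over all genes tested, with a threshold of 0.05. Standard errors are the log2 change divided by the square root of F. CPM are TMM-scaled, RPKM divide them by the joint length of all annotated exons of a gene, and the biological coefficient of variation was 8.62%. The scripts were tested on simulated data. Replicates differed beyond sampling noise (chi-square per gene from 2.92 to 43.9), so none was counted as 1 library with another.

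All detected members are named. Of the receptor and regulator lists, some of the genes with the largest changes past the threshold are named, and for the genotype comparisons Fos alone of the regulators. The members and lists were chosen with earlier results of these data known. Alternatives were other scalings, DESeq2 1.42.0, other filters, a replicate block, the sequencing lane from the table names as covariate, the 6 samples compared alone, a 2-fold limit, letter-suffixed chemokines and leaving out each sample in turn. Titles share replicate numbers 1 to 3. Deviations from the group means correlated between same-numbered samples by 0.149 to 0.354 in the normoxia groups and by 0.152 to 0.368 in the WT groups. Each of these pairs was above 0.1. Samples 2 and 3 also passed this limit across numbers, at 0.116 and 0.112 between the normoxia groups and 0.147 and 0.180 between the WT groups. The block takes the numbers as pairs, but the limit does not show which of samples 2 and 3 belong together. Same-numbered samples did not pass it in every pair of the hypoxia groups (-0.0237 to 0.121) or the TAZKo groups (-0.0245 to 0.0946). Samples numbered 1 shared lane 4 and those numbered 3 lane 5. Those numbered 2 were on lane 4 in normoxia and lane 5 in hypoxia, so lane was not balanced between the conditions. What the numbers stand for is not given in the sources used here.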

Additional observations from a re-analysis of the deposited data

Results flagged for a closer look

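The response to hypoxia differed between the genotype labels, by the test of the interaction itself (edgeR, adjusted over all genes tested), for 5 members. The log2 difference, TAZKo minus WT, was -1.49 for Ptgs2, -1.06 for Il1rn, -0.984 for Il33, -0.92 for Cxcl10 and -0.545 for Ccl7. Among the named genes of the receptor and regulator lists it was -1.78 for Atf3, -1.78 for Fos, -0.859 for Zfp36, -0.833 for Jun and -0.745 for Cd44. All 10 differences are negative, which concerns the response to hypoxia and not the level under the TAZKo label. What these genes have in common was not tested.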

How the results depend on the processing

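Of 64 member calls reported over the 5 comparisons, 51 passed in each of the 19 to 21 refits made for them (other scalings, test, filters, block, lane and samples), 13 were lost in some and none changed sign. A refit without a result for a gene is not counted. Among the 51 are the WT calls of Ccl6, Ccl8 and Ccl9 and the TAZKo call of Ccl6. These genes were tested only because of their hypoxia levels, so keeping these calls is no support for a rise. Requiring a log2 change of at least 1 is apart from these and left 6, 8, 10, 12 and 2 members called. Leaving out 1 library gave 12 to 15 and 12 to 17 members called for the genotype comparisons in normoxia and hypoxia. It gave 13 to 15 and 13 to 17 for the hypoxia responses under the WT and TAZKo labels, and 3 to 6 for the interaction. Of 66 differences that had not passed, 28 were refitted, and among these the sign turned when 1 library was left out for Cxcl12 under the WT label (-0.00094 to 0.15), and in the interaction for Cxcl1 (-0.052 to 0.11), Lif (-0.11 to 0.22) and Cxcl14 (-0.082 to 0.21). Lane as a covariate gave 15, 16, 14, 16 and 5 members called.

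With the replicate block the members called were 16, 16, 14, 16 and 5. In 2 comparisons every same-numbered pair correlated above 0.1 (the genotype in normoxia and hypoxia under the WT label). There the block added Ccl2 and Ptgs2 in normoxia and changed no other call among the results refitted. Scaling by library size alone shifted the median log2 change of all genes by -0.11 for hypoxia under the WT label and by -0.094 under the TAZKo label, where 9 members rose and 9 fell. Counting members over the limit of the filter in a normoxia library, a choice made after seeing the data, gave 11 and 13 called for hypoxia. Depth limits members near 3 counts, such as Ccl6, Ccl8 and Ccl9 in normoxia.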
